A study of Bos taurus with 6 samples.

Results

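The bovine microRNA (miRNA) names of the miR-199 and miR-214 group, with miR-3604 and miR-3120 whose genes overlap theirs, were followed through small RNA libraries of cultured fat cells. They were taken by name from the deposited table as bta-miR-199a-5p, bta-miR-199a-3p, bta-miR-199b, bta-miR-199c, bta-miR-214, bta-miR-3604 and bta-miR-3120 (the species prefix bta- is dropped below), which are 7 of its 771 known miRNA rows and 7 of 879 known and predicted ones. The group was picked out because miR-199a-3p and miR-3604 had the most positive and the most negative difference between adipocytes and preadipocytes among known miRNAs with a mean of at least 10 CPM (counts-per-million of miRNA reads). The members' values in that contrast are therefore described here without p-values of their own, and nothing is drawn from their size. Where it is told which members passed a threshold of adjusted p, nothing is drawn from that either. The study set out to find miRNAs linked to fat cell formation. It has 3 adipocyte samples, which are preadipocytes induced with insulin, dexamethasone, rosiglitazone (an agonist of the fat cell regulator PPARG) and IBMX (a phosphodiesterase inhibitor). They were set against 3 samples of bovine preadipocytes, the committed precursors of fat cells. All cells were Holstein, at passage 4 to 6, in F12/DMEM medium to which 10% FBS and 1% antibiotics had been added. Whether a group's samples are separate animals or cultures is not in the labels. The spread between them may thus be technical, and the source is labelled adipose tissue for both groups.

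A miRNA is cut from a hairpin whose stem can give a 5p and a 3p product, and each guides repression of mRNAs that pair with its seed. In mouse and human the genes of miR-199a and miR-214 lie close together in a long noncoding transcript (DNM3OS) that runs opposite to an intron of the dynamin gene DNM3, and this transcript is driven by the mesenchymal factor TWIST1. Other copies of miR-199 lie in further dynamin genes. In human and mouse the 3p product of the miR-199a genes has the same sequence as that of miR-199b, so that its reads cannot be given to 1 gene. Known targets in human and mouse cells include MTOR and MET for miR-199a-3p, HIF1A and caveolin-1 for miR-199a-5p, and EZH2 for miR-214. In human, miR-3120 comes from the strand opposite miR-214.

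The cattle genes lie beside each other and inside dynamin genes too. All 6 precursor names matched RefSeq annotation of assembly ARS-UCD2.0, with 8 genes. MIR199A-1, MIR214 and MIR3120 lie within 10000 bases of each other inside DNM3, and a long noncoding RNA gene (LOC132342463) spans all 3. MIR214 overlaps MIR3120. MIR199A-2 overlaps MIR3604-1 inside DNM2, and MIR199B overlaps MIR3604-2 inside DNM1. Dynamins are the GTPases that pinch off endocytic vesicles. MIR199C stands apart, inside the nuclear pore gene NUP88. The reads named miR-199a can thus come from 2 genes, and miR-3604 overlaps a gene of miR-199a and the gene of miR-199b. The deposited table places the 7 names in different families, with miR-199a-5p, miR-199a-3p and miR-199b under mir-199, miR-214 and miR-3120 under mir-214, miR-3604 under its own name and miR-199c under none.

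The known and predicted miRNAs took 14525284 to 22283754 reads per library, and the 7 names together took 79574 to 297084. Their share of miRNA reads was 1.98%, 1.94% and 1.55% in adipocyte replicates 1, 2 and 3 and 0.849%, 0.548% and 0.550% in preadipocyte replicates 1, 2 and 3. Every adipocyte library thus lay above every preadipocyte library. Such a share also depends on the other rows. Of these, miR-21-5p alone held 9622712, 10053538 and 14162416 reads in adipocyte replicates 1, 2 and 3. It held 13592141, 11454445 and 17868023 reads in preadipocyte replicates 1, 2 and 3. Levels below are CPM scaled with edgeR's TMM factors, which correct for the composition of a library and ran between 0.735 and 1.40. Differences are log2 of adipocytes over preadipocytes from the edgeR fit over all miRNAs. Their standard error (SE) was derived from the F statistic of edgeR's test of group. Rows of exon, intron, repeat and intergenic reads held 10.4%, 12.0% and 8.21% of the table in adipocyte replicates 1, 2 and 3. They held 18.5%, 18.9% and 5.29% in preadipocyte replicates 1, 2 and 3. Replicate 3 was thus the lowest of both groups, and preadipocyte replicate 3 stood apart from its group. Protein-coding markers of fat cells are not measured by this assay. Among miRNAs that mark other cells, those of endothelium (both arms of miR-126) summed to 43.0 to 67.9 CPM in adipocytes, against 114 to 455 CPM in preadipocytes. The 5 blood rows summed to 0.379 to 1.02 CPM in adipocytes and 1.96 to 4.64 CPM in preadipocytes, and the 6 epithelial rows to 0.869 to 1.09 CPM in adipocytes and 1.41 to 2.39 CPM in preadipocytes. These 3 lists did not overlap between the groups. The 6 muscle rows (36.9 to 41.3 CPM in adipocytes, 29.9 to 65.0 CPM in preadipocytes) and the 3 neural rows (60.2 to 68.2 CPM in adipocytes, 53.7 to 95.0 CPM in preadipocytes) did. Among all 414 tested miRNAs, 20.5% were lower in adipocytes without overlap and 24.2% were higher without overlap. Rows that passed the low-count filter numbered 2 endothelial, 1 blood, 0 epithelial, 3 muscle and 3 neural. By edgeR's adjusted p, 1 muscle row was called lower in adipocytes and no other marker row was called. No row of these marker lists was at 0 in all 6 libraries, and their part in the results was not tested. In such bulk libraries fewer cells of a type and less RNA per cell cannot be told apart.

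The reads named miR-199a-3p were nearly all in adipocytes. For bta-miR-199a-3p the level was 7776, 5951 and 6544 CPM in adipocyte replicates 1, 2 and 3, against 23.6, 10.1 and 14.9 CPM in preadipocyte replicates 1, 2 and 3. Adipocytes thus averaged 6757 ± 931 CPM and preadipocytes 16.2 ± 6.83 CPM (SD, n = 3 each), a log2 difference of 8.70 (SE 0.47). The name ranked 9th to 10th among known miRNAs in the adipocyte libraries and 156th to 187th in the preadipocyte libraries. The opposite arrangement held for bta-miR-3604, at 43.0, 36.3 and 7.42 CPM in adipocyte replicates 1, 2 and 3, against 4547, 2414 and 3163 CPM in preadipocyte replicates 1, 2 and 3. Adipocytes averaged 28.9 ± 18.9 CPM and preadipocytes 3375 ± 1082 CPM (SD, n = 3 each), with a log2 difference of -6.87 (SE 0.80). Among adipocytes, replicate 3 was the lowest. For both names the lowest library of the high group lay far above the highest library of the other. Without preadipocyte replicate 3 the log2 differences were 8.66 and -6.91.

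**Figure D1:**
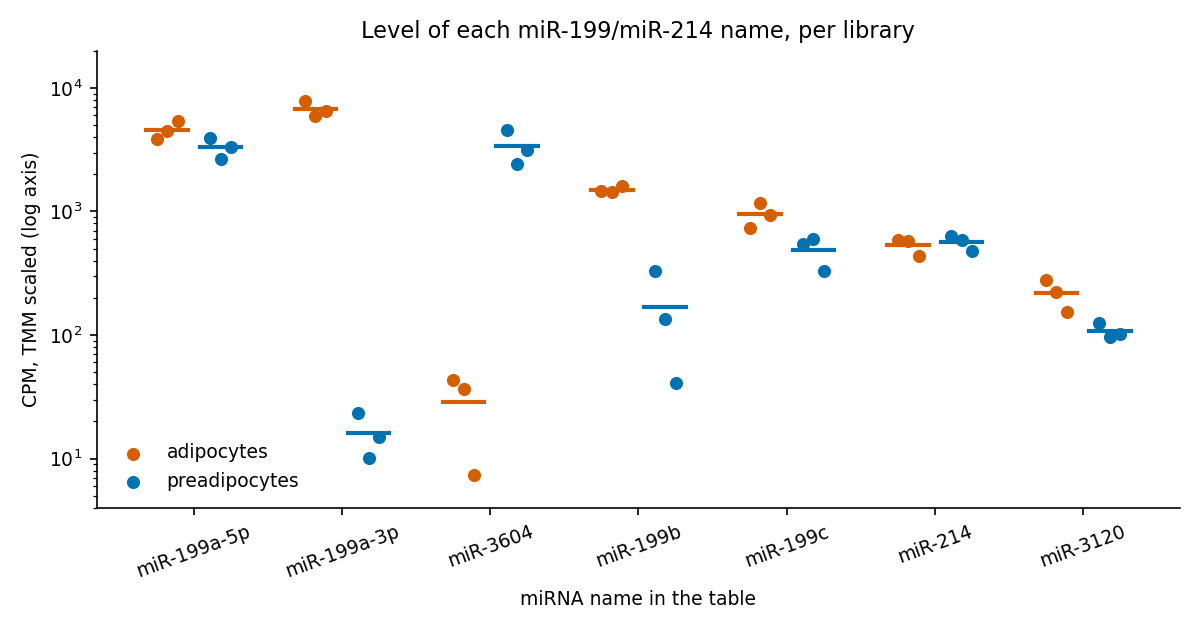
Level of each of the 7 names in CPM after TMM scaling (vertical log axis) for the 3 adipocyte libraries (orange, left) and the 3 preadipocyte libraries (blue, right), with a line at each mean. The reads of miR-199a-3p and miR-3604 change places between the groups (means of 6757 and 28.9 CPM in adipocytes, 16.2 and 3375 CPM in preadipocytes), while miR-199a-5p and miR-214 overlap between them.

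Summed over both names, the difference was far smaller than for either. The sum of miR-199a-3p and miR-3604 held 157746, 126471 and 128105 reads in the adipocyte libraries (replicates 1 to 3), against 66868, 29766 and 52013 reads in the preadipocyte libraries. It averaged 6786 ± 938 CPM for adipocytes and 3391 ± 1089 CPM for preadipocytes (SD, n = 3 each), a log2 difference of 1.00 (SE 0.29), and the groups did not overlap. The name miR-3604 took 0.550%, 0.606% and 0.113% of that sum in the adipocyte libraries. In the preadipocyte libraries it took 99.5%, 99.6% and 99.5%. The widest exact (Clopper-Pearson) 95% interval of these shares ran from 0.564% to 0.650% in adipocytes and from 99.5% to 99.7% in preadipocytes, for replicate 2 of each, covering counting error only. Overlap of genes was called by position without regard to strand, so whether any read matches both names is not known here. The sources used here do not give the rule by which such reads would be assigned. Whether the opposite levels lie in the reads or in their naming was not tested.

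**Figure D2:**
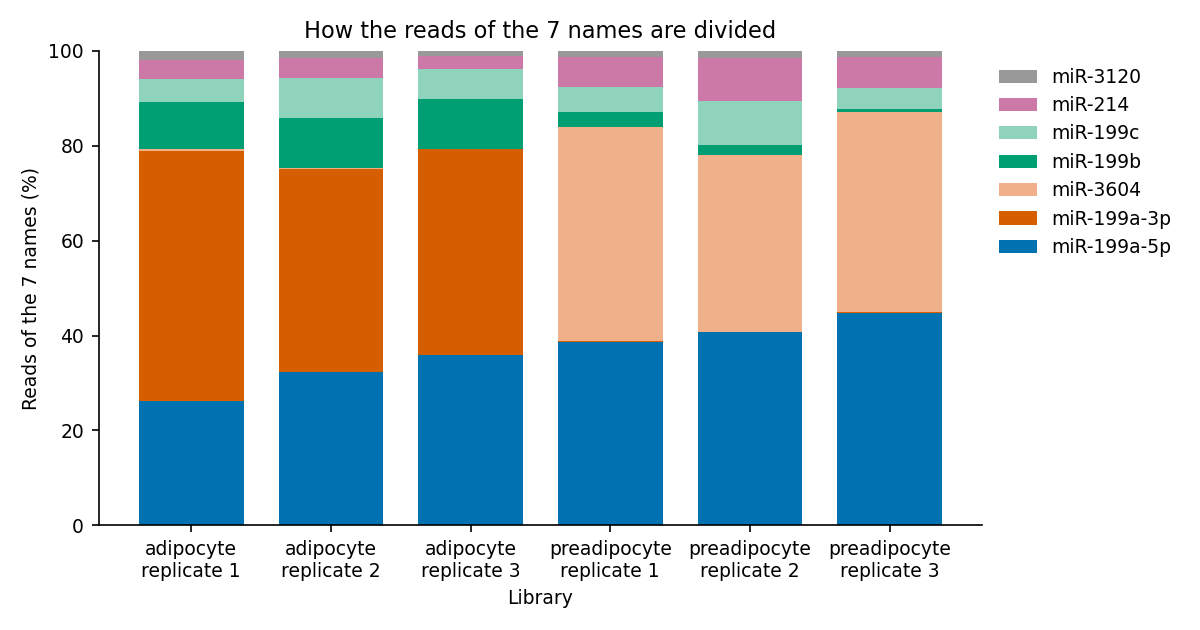
Share of the reads of the 7 names (percent, stacked to 100) under each name in the 3 adipocyte libraries (left) and the 3 preadipocyte libraries (right). The block of miR-199a-3p is 42.9% to 52.8% in adipocytes and at most 0.233% in preadipocytes. The block of miR-3604 is at most 0.292% in adipocytes and 37.3% to 44.9% in preadipocytes.

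Adding miR-199a-5p and miR-199b, whose genes belong to the same overlaps, gave 264821, 251537 and 265448 reads in the adipocyte libraries, against 129043, 63770 and 107472 reads in the preadipocyte libraries. The sum of these 4 names averaged 12870 ± 863 CPM for adipocytes and 6860 ± 1831 CPM for preadipocytes (SD, n = 3 each), 1.88 times as high, with a log2 difference of 0.91 (SE 0.25). All 7 names together came to 14570 ± 632 CPM in adipocytes, against 8030 ± 1882 CPM in preadipocytes (log2 difference 0.86, SE 0.23). Neither sum overlapped between the groups. Summing by the table's own mir-199 family leaves miR-3604 out, and that sum differed by 1.88 on the log2 scale (SE 0.23), with 12841 ± 874 CPM in adipocytes, against 3486 ± 750 CPM in preadipocytes.

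The 5p product miR-199a-5p was abundant in every library. Its reads were 77543, 94481 and 106041 in adipocyte replicates 1, 2 and 3, against 57323, 32357 and 54788 in preadipocyte replicates 1, 2 and 3. The level was 4580 ± 795 CPM in adipocytes, against 3301 ± 643 CPM in preadipocytes (SD, n = 3 each), a log2 difference of 0.47 (SE 0.25). On this scale the groups overlapped, since adipocyte replicate 1 (3844 CPM) lay below preadipocyte replicate 1 (3918 CPM). Without the TMM factors they did not, at 5158 to 6252 CPM of all miRNA reads for adipocytes and 2228 to 3287 CPM for preadipocytes. The log2 difference was 0.15 without adipocyte replicate 3, the library with the highest level.

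The balance of the hairpin's arms depends on which names are counted. The name miR-3604 carries no arm, and adding its reads to those of miR-199a-3p is an assumption made from the overlap of the genes that no sequence here bears on. With it, the ratio of miR-199a-5p over the sum of miR-199a-3p and miR-3604 was 0.492, 0.747 and 0.828 in adipocyte replicates 1, 2 and 3 and 0.857, 1.09 and 1.05 in preadipocyte replicates 1, 2 and 3. The mean log2 ratio was -0.57 ± 0.40 in adipocytes and -0.01 ± 0.19 in preadipocytes (SD, n = 3 each), a difference of -0.56. The ranges touched closely, at 0.828 in adipocyte replicate 3 and 0.857 in preadipocyte replicate 1, and without adipocyte replicate 1 the difference was -0.34. By names alone, with miR-199a-5p over miR-199a-3p, the ratio was 0.494 to 0.829 in adipocytes and 166 to 260 in preadipocytes, a log2 difference of -8.30. Both versions of the ratio share the 5p reads and differ in whether the miR-3604 reads are counted.

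The names miR-199b and miR-199c carry no arm in the table. Their libraries did not overlap between the groups, with the adipocyte libraries above, but neither was past the adjusted p of 0.05 over all miRNAs. Reads of miR-199b numbered 29532, 30585 and 31302 in adipocyte replicates 1, 2 and 3 and 4852, 1647 and 671 in preadipocyte replicates 1, 2 and 3. The adipocyte libraries were close together, at 1504 ± 84.0 CPM, while the preadipocyte libraries spread over 332, 134 and 41.0 CPM, with a mean of 169 ± 148 CPM (SD, n = 3 each). The log2 difference was 3.15 (SE 0.73), at 4.09 without preadipocyte replicate 1 and 2.70 without preadipocyte replicate 3. The low group of miR-199b thus varied far more, with a coefficient of variation of 5.58% in adipocytes and 87.9% in preadipocytes. For miR-199c the levels were 732, 1165 and 942 CPM in adipocyte replicates 1, 2 and 3, against 541, 603 and 333 CPM in preadipocyte replicates 1, 2 and 3. The groups did not overlap, with a log2 difference of 0.94 (SE 0.32).

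In the DNM3 pair, the libraries of miR-214 overlapped between the groups and those of miR-3120 did not. Reads of miR-214 were 11843, 12235 and 8594 in adipocyte replicates 1, 2 and 3 and 9347, 7213 and 7891 in preadipocyte replicates 1, 2 and 3. Its level was 535 ± 83.0 CPM in adipocytes, against 570 ± 79.9 CPM in preadipocytes (SD, n = 3 each), a log2 difference of -0.09 (SE 0.25). The libraries overlapped, with adipocyte replicate 3 the lowest at 439 CPM and preadipocyte replicate 1 the highest at 639 CPM. Reads of miR-3120 were 5648, 4724 and 2996 in adipocyte replicates 1, 2 and 3, against 1814, 1190 and 1672 in preadipocyte replicates 1, 2 and 3. Its level was 219 ± 63.5 CPM in adipocytes, against 108 ± 14.4 CPM in preadipocytes (SD, n = 3 each), with a log2 difference of 1.02 (SE 0.32) and no overlap. The sum of both names was 754 ± 143.5 CPM in adipocytes, against 677 ± 89.5 CPM in preadipocytes and overlapped between the groups (log2 difference 0.16, SE 0.25). Within that sum miR-3120 took 32.3%, 27.9% and 25.8% in adipocyte replicates 1, 2 and 3 and 16.3%, 14.2% and 17.5% in preadipocyte replicates 1, 2 and 3. This share does not depend on the scaling of the libraries, and every adipocyte library lay above every preadipocyte library.

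The order of levels differed between the cell states. In adipocytes it ran miR-199a-3p, miR-199a-5p, miR-199b, miR-199c, miR-214, miR-3120 and miR-3604 by mean CPM, and no neighbours in that order overlapped in their libraries. In preadipocytes it ran miR-3604, miR-199a-5p, miR-214, miR-199c, miR-199b, miR-3120 and miR-199a-3p. There miR-3604 and miR-199a-5p overlapped, as did miR-214 and miR-199c, and miR-199b and miR-3120. The 2 names that carried the fewest reads in their low group, miR-199a-3p and miR-3604, kept to 10.1 to 23.6 CPM in preadipocytes and 7.42 to 43.0 CPM in adipocytes, levels above 0 in every library.

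All 7 names passed the low-count filter, and in edgeR's quasi-likelihood test with Benjamini-Hochberg adjustment 2 of the 7 (miR-199a-3p and miR-3604) were past an adjusted p of 0.05, where 6.28% of 414 tested miRNAs were. Past it in the higher direction were 1 of 7, against 3.86% of all, and in the lower direction 1 of 7, against 2.42%. Without overlap between the groups were 5 of the 7 (4 higher, 1 lower in adipocytes), against 44.7% of all tested miRNAs (24.2% higher, 20.5% lower). The count of 2 was 1 (miR-199a-3p) without adipocyte replicate 1, without adipocyte replicate 2 and without preadipocyte replicate 2. It was also 1 (miR-199a-3p) with the replicate number added to the fit as a block. Without preadipocyte replicate 3 it was 3 (with miR-199b), and by DESeq2 it was 4 (with miR-199b and miR-3120). With library totals alone it was 6 (all but miR-214). These counts describe names chosen on that contrast, and nothing is read from them. The median log2 difference was 0.94 over the 7 names and -0.02 over all 414.

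Scaling moved every name by a similar amount. With library totals alone the median of all tested miRNAs was 0.62, and with upper-quartile factors -0.31. The name miR-214, at -0.09 with TMM factors, was at 0.56 with totals alone and -0.40 with upper-quartile factors. The sum of miR-214 and miR-3120 was at 0.81 and -0.11 under the same scalings, so that no direction is given for either. The differences of miR-199a-3p (8.42 to 9.34), miR-199b (2.86 to 3.74), miR-3120 (0.71 to 1.69), miR-199c (0.62 to 1.57), miR-199a-5p (0.19 to 1.09) and miR-3604 (-7.21 to -6.14) kept their signs under TMM, RLE and upper-quartile factors and totals alone.

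**Figure D3:**
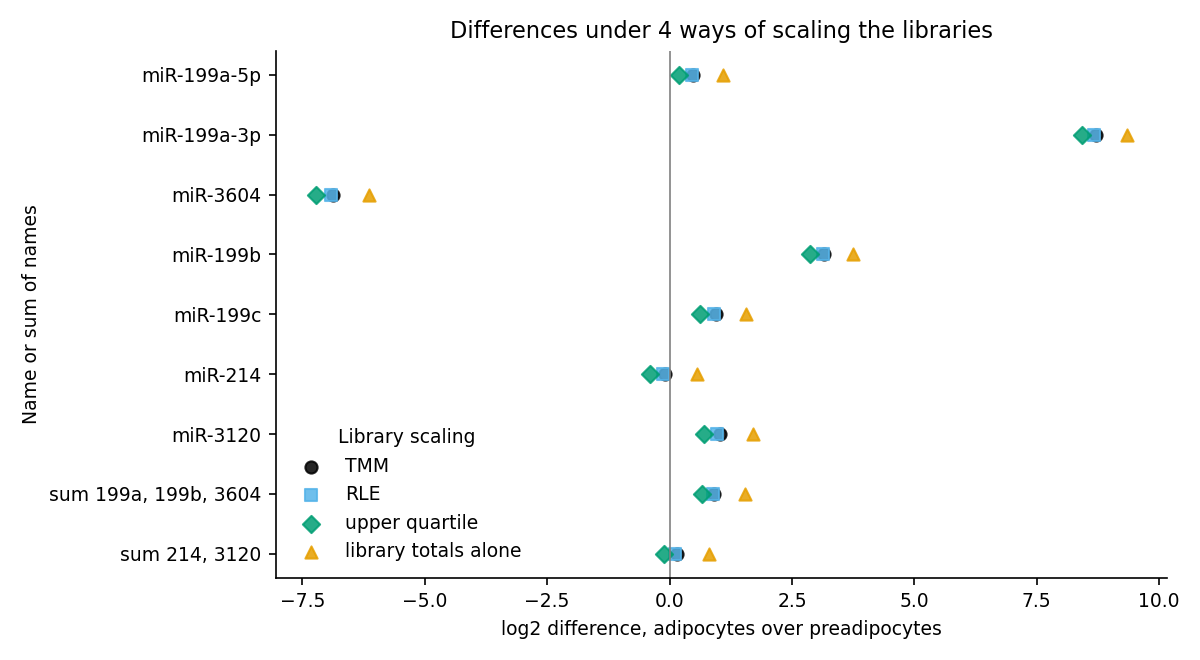
Log2 difference of adipocytes over preadipocytes (horizontal axis) for each of the 7 names and the sums over overlapping genes, with 4 ways of scaling the libraries shown by marker. The differences of miR-214 and of its sum with miR-3120 fall on both sides of 0 (-0.40 to 0.56 and -0.11 to 0.81), and the sum of miR-199a, miR-199b and miR-3604 lies between 0.67 and 1.53.

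Other miRNA genes overlap as well, and their reads were set beside these. Among known names, 25 other pairs overlapped in RefSeq, and 12 of them held at least 100 reads in each library. In none of these 12 did the share of the less-read name separate the groups. The largest difference between group means was in the pair of miR-26c and miR-26a. There miR-26a was at 39.9% of the pair's total for adipocytes and 66.4% for preadipocytes. Beside miR-199a-3p, miR-3604 was at 0.423% and 99.5%, a share that leaves out miR-199a-5p. For the other pairs all arms of a name were summed, so these measures are unlike. Beside miR-199b, which has a single row, miR-3604 took 1.92% in adipocytes and 95.6% in preadipocytes. Of all 7 names it took 0.201% and 41.5%. In the pair of miR-542 and miR-3601, miR-3601 took 62.2%, 3.84% and 59.2% in adipocyte replicates 1, 2 and 3 and 6.89%, 5.92% and 71.5% in preadipocyte replicates 1, 2 and 3. The let-7b and miR-3596 pair was similar, with miR-3596 at 36.8%, 54.0% and 41.4% in adipocyte replicates 1, 2 and 3 and 29.7%, 95.8% and 26.9% in preadipocyte replicates 1, 2 and 3. In these pairs the shares thus differed between libraries of the same group. The difference between these pairs and the miR-199a-3p pair was not tested. The names miR-199a-3p and miR-3604 were chosen for their opposite differences in this same contrast. That their shares separate the groups thus follows from the choice, and nothing is read from it.

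**Figure D4:**
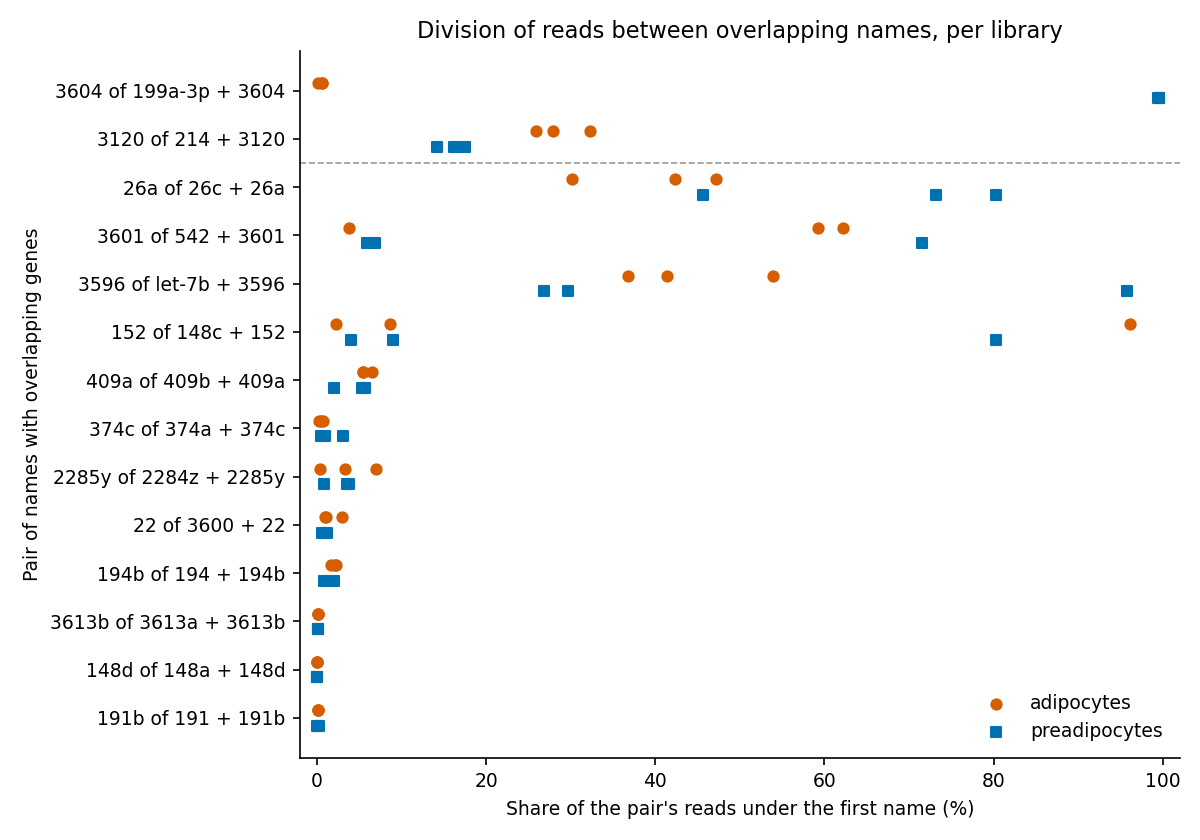
Share of a pair's reads under the first of 2 names with overlapping genes (percent, horizontal axis). The 3 adipocyte libraries are orange circles (upper) and the 3 preadipocyte libraries blue squares (lower). Above the dashed line are miR-3604 beside miR-199a-3p and miR-3120 beside miR-214, and below it are 12 other pairs. The pair of miR-199b and miR-3604 is not drawn. In the top pair miR-3604 is at most 0.606% in adipocytes and 99.5% to 99.6% in preadipocytes, and no pair below the line separates the groups. The top pair leaves out miR-199a-5p, while the pairs below the line sum all arms of a name. Its 2 names were chosen on this contrast, and the pairs below the line were not.

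Likeness between profiles was measured as the root mean square difference of log2(CPM + 1), each profile centred on its mean over the 6 libraries. Among the members the closest were miR-199a-5p and miR-214 (0.437), and the farthest were miR-199a-3p and miR-3604 (7.92). Of 195 other known miRNAs at or above 10 CPM, the nearest to miR-199a-3p were miR-708, miR-33b, miR-193a-3p, miR-410 and miR-376a, at 2.62 to 3.41. Nearest to miR-3604 were miR-1249, miR-23b-3p, miR-1296, miR-126-3p and miR-24-3p, at 2.65 to 2.80. None of these profiles was close to either name. Both names were chosen as the extremes of the group difference, which this measure includes. Their distance from other miRNAs and from each other thus follows in part from that choice, and nothing is read from it. The sum of all 7 names lay much nearer to others, with miR-15b (0.202), miR-16b (0.206), miR-345-5p (0.212), miR-21-3p (0.247) and miR-497 (0.253). The level of miR-16b, for example, was 2792 ± 255 CPM in adipocytes, against 1751 ± 396 CPM in preadipocytes (SD, n = 3 each).

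Beside the group stand 2 lists of miRNAs known from the same settings, neither of which holds a member. Of 12 tested fibrosis-linked miRNAs, 0 were higher and 1 was lower in adipocytes by edgeR's test (Benjamini-Hochberg adjusted p of 0.05), and 11 did not pass, where 6.28% of all 414 were called. At an unadjusted p under 0.05, 2 were higher and 3 lower, where 34.1% of all were past it. DESeq2 called 2 higher and 3 lower, where it called 24.1% of the 399 miRNAs to which it gave an adjusted p. The one called lower by edgeR was miR-146a, which restrains inflammatory signalling, with 1, 1 and 4 reads in the adipocyte libraries and at 0.10 ± 0.09 CPM in adipocytes, against 8.22 ± 4.78 CPM in preadipocytes (log2 difference -6.27, SE 0.75, edgeR adjusted p = 0.0134). The most abundant were miR-21-5p, with a log2 difference of -0.82 (SE 0.23), and miR-34a, a p53-responsive miRNA, with 0.45 (SE 0.26). The list's median log2 difference was -0.29. Of 20 tested mesenchymal and fibroblast miRNAs, 1 was higher (miR-100, 1.29, SE 0.24) and 1 lower (miR-24-3p, -1.78, SE 0.28), with edgeR adjusted p of 0.0293 and 0.0242, and 18 did not pass. At an unadjusted p under 0.05, 4 of this list were higher and 4 lower, and DESeq2 called 2 higher and 3 lower, beside the same shares of all miRNAs. All 3 of these edgeR calls (miR-146a, miR-100 and miR-24-3p) were lost without adipocyte replicate 1, without adipocyte replicate 2 and without preadipocyte replicate 2, at edgeR adjusted p of 0.0642 to 0.14. Without preadipocyte replicate 1 those of miR-100 (0.0968) and miR-24-3p (0.0772) were lost too, and without adipocyte replicate 3 that of miR-100 (0.0789). The most abundant members of the mesenchymal and fibroblast list were miR-21-5p and miR-143, which shapes smooth muscle, with a log2 difference of -0.32 (SE 0.28), and its median was 0.24, beside -0.02 for all tested miRNAs.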

How the data were processed

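Small RNA of 18 to 30 nt from 6 libraries was sequenced. Per the submitters' processing notes Bowtie2 was used. The build, the miRNA annotation, the use of strand and how reads that match more than 1 name were handled are not given in the sources used here. Per the file headers, each library has a column of counts and one of TPM. The count columns are whole, unnormalized reads per row, as the authors deposited them. The deposited TPM values equal the count divided by 1 constant per library (within 0.006), with no length term and with 0 written as 0.001. What separates the table's labels mature (3 of the members) and hairpin (4) is not stated.

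Known and predicted miRNA counts were fitted in R 4.3.3 by edgeR 4.0.16 with filterByExpr, then TMM factors, then glmQLFit and a two-sided glmQLFTest of group, the sole term, with Benjamini-Hochberg adjustment over 414 miRNAs and a threshold of 0.05. The SE of a difference was taken as its absolute value divided by the square root of the F statistic of that test. Rows of genome features, Rfam families and piRNAs stayed out of the fit and the library sizes. The genome-feature rows made up 5.29% to 18.9% of the table. Names were summed before fitting where their RefSeq genes overlap in position, with strand not considered. Of 704 known names 688 matched that table. It is used for names and overlap only, since its assembly is not known to be that of the deposited table. Arms were taken from the names, and miR-3604, whose name has none, was counted with the 3p reads in 1 version of the arm ratio. DESeq2 1.42.0 was an alternative. Shares have exact intervals from SciPy 1.17.1. The edgeR fit was tested on simulated data. The members, lists and comparisons were chosen with earlier results of these data known. Named miRNAs are all members, the 5 with the nearest profile, the 2 most abundant of each list and the 3 other pairs of overlapping genes whose shares differ most. miR-146a, miR-100, miR-24-3p and the pair of miR-148c and miR-152 were named after their values were seen. No 2 libraries agreed within sampling noise, with a chi-square per degree of freedom of at least 1169 over miRNAs.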

Additional observations from a re-analysis of the deposited data

Results flagged for a closer look

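The Rfam row of the mir-199 precursor family, which no comparison above uses, lay higher in every adipocyte library, with no test made. Its deposited TPM was 7974, 7851 and 7923 in adipocyte replicates 1, 2 and 3 and 2325, 1854 and 2594 in preadipocyte replicates 1, 2 and 3. The ratio of the group means was 3.51, and it was listed here because every adipocyte library lay above every preadipocyte library in data outside the miRNA rows. Deposited TPM has no TMM factors. On it the sum of miR-199a-3p, miR-199a-5p, miR-199b and miR-3604 had a log2 difference of 1.50, against 0.91 with TMM factors. Reads of the Rfam row came to 67.9% to 78.5% of the summed reads of miR-199a-5p, miR-199a-3p, miR-199b, miR-199c and miR-3604 in adipocytes and 45.9% to 69.6% in preadipocytes. Whether the Rfam row shares reads with those names is not stated.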

How the results depend on the processing

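The count of 26 miRNAs past the threshold was 97 with library totals alone, 49 with upper-quartile factors, 43 with a minimum of 10 CPM, 59 with known miRNAs alone, 96 with DESeq2 on the same rows and 1 to 148 with each library left out in turn (1 without adipocyte replicate 1 or 2 or preadipocyte replicate 2, 4 without preadipocyte replicate 1, 8 without adipocyte replicate 3, 148 without preadipocyte replicate 3). It was 1 with a replicate block (111 at an unadjusted p under 0.05), and the labels do not say whether the numbers pair the samples. The deviations of same-numbered libraries correlated at 0.03, -0.34 and 0.07, and those of differently numbered libraries at -0.27 to 0.27. With 3 libraries per group these values cannot decide whether same-numbered libraries share a culture or batch. Of 153 alternative values for the 12 differences described above, 132 moved by less than 1 SD between replicates. The direction turned for miR-214 with totals alone (0.56) and deposited TPM (0.47), and for the sum of miR-214 and miR-3120 with upper-quartile factors (-0.11) and a minimum of 10 CPM (-0.055). That sum was 0.81 with totals and 0.71 with TPM, and miR-214 was -0.40 with upper-quartile factors. With totals alone and deposited TPM, in that order, miR-199a-3p was at 9.34 and 9.18, miR-199a-5p at 1.09 and 1.04, miR-199c at 1.57 and 1.52, miR-3120 at 1.69 and 1.54, and the sum of the 4 overlapping names at 1.53 and 1.50. That sum was 1.88 by the table's family, and miR-199a-5p was 0.19 with upper-quartile factors and 0.15 to 0.61 with each library left out. The ratio of arms moved to -8.30 without miR-3604, an alternative chosen after seeing the data. With the replicate block the edgeR calls of miR-146a, miR-100 and miR-24-3p were lost (adjusted p of 0.0972, 0.125 and 0.0972). The cause of these shifts was not tested. Summing by mature sequence was not run. Depth limits none of these names, whose lowest level in a library was 7.42 CPM.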

Other observations

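The Rfam row of the mir-214 family held 404, 365 and 1378 reads in adipocyte replicates 1, 2 and 3, against 2, 12 and 1133 reads in preadipocyte replicates 1, 2 and 3. Replicate 3 of both groups stood above the others, and the groups overlapped. Against the summed reads of miR-214 and miR-3120 the row came to 2.31%, 2.15% and 11.9% in the adipocyte libraries and 0.018%, 0.143% and 11.8% in the preadipocyte libraries. Within the miRNA rows replicate 3 of both groups was the lowest for miR-214, with 587, 579 and 439 CPM in adipocyte replicates 1, 2 and 3 and 639, 588 and 482 CPM in preadipocyte replicates 1, 2 and 3.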
